A study of Homo sapiens with 8 samples.

Results

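Besides the PEA3 group of ETV1, ETV4 and ETV5, human cells hold a large family of transcription factors with an ETS domain. This section describes 10 of them in H9 hESCs: ETS1, ETS2, ERF, ELK1, ELK3, ELK4, GABPA, ETV6, ELF1 and ELF2. They were chosen by name from the ETS factors outside the PEA3 group, with earlier results of these data known. Other such factors were left out of the 10. They are 10 of the 20344 genes with a row in either deposited table, and all 10 were measured in both tables and tested.

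H9 (WA09) is an established human embryonic stem cell line, grown here on Matrigel in mTeSR1 or TeSR-E8. Poly-A RNA was sequenced in 8 libraries from 2 experiments. One compared 2 libraries labelled small, from low-density H9 cultures, with 2 libraries of crowded hESCs, whose adhesive area was limited to small Matrigel drops. The other compared 2 Ctrl libraries, from hESCs with a control hairpin, with 2 ETV4 KD libraries, from hESCs in which a lentiviral hairpin targeted ETV4. No genotype or treatment other than density separated the first pair of groups in the labels. The sources used here do not say which ETV4 hairpin gave the sequenced RNA, nor whether the 2 libraries of a group came from separate cultures, so the p-values measure only the spread between these libraries.

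ETS factors bind DNA through a shared winged helix-turn-helix domain that reads a GGAA core, and many of them are phosphorylated by ERK. Some activate and others repress, and partner proteins decide much of their choice of sites: the ELK factors bind beside serum response factor (SRF), and GABPA binds together with GABPB. Most members of the family are expressed broadly, so a stem cell holds many ETS factors that can read similar DNA.

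Total counts on genes ran from 50359703 to 62410168 reads per library, and the members had 706 to 4753 reads in a library. As a check of the knockdown label, ETV4 itself stood at 90.8 and 95.1 FPKM (fragments mapped to the gene, scaled for transcript length and library depth) in the Ctrl libraries and at 45.6 and 40.9 FPKM in the ETV4 KD libraries. The 9 pluripotent stem cell markers, POU5F1 foremost, summed to between 2735 and 3565 FPKM in each library. Single markers of this list moved in both directions after ETV4 KD, as given below. Summed levels of neuroectoderm markers were at most 1.37 FPKM, and those of trophoblast or amnion markers at most 3.32 FPKM. RNA was taken from whole cultures, where fewer cells of a type and less RNA per cell cannot be told apart.

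The sequence context of the members was read from RefSeq promoters on GRCh38.p14, as the 250 bases before a transcript start. Windows were found for 9 of the 10 members, 16 in all, and none was found for ETS1. The extended ETS site CCGGAAGT, searched on both strands, lay in 2 of these 16 windows, those of ELK4 and GABPA, and in 3.42% of the 35116 windows of all genes. The shorter site CGGAAG, which the extended one contains, lay in the same 2 windows of the members and in 16.5% of all windows. The CArG box bound by SRF was in none of the members' windows and in 1.16% of all. The 30 bases around the extended site are shown because these 2 promoters alone among the members carry it, with the site in capitals. The ELK4 stretch is chr1:205632015-205632044 on the minus strand, and the GABPA stretch is chr21:25734894-25734923 on the plus strand, where the site reads on the opposite strand.
ELK4: cagcccctcccCCGGAAGTgacgtgtagcg
GABPA: acctccgctctACTTCCGGccctggctccg

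The promoters of ETS2, ETV6 and ELF2 are shown because these members changed in only 1 experiment or in opposite directions. Capitals mark the GGAA core, or TTCC where it lies on the other strand. The windows are chr21:38804933-38805182 on the plus strand for ETS2 (the more upstream of 2), chr12:11649424-11649673 on the plus strand for ETV6, and chr4:139177219-139177468 on the minus strand for ELF2 (the more upstream of 2).
ETS2: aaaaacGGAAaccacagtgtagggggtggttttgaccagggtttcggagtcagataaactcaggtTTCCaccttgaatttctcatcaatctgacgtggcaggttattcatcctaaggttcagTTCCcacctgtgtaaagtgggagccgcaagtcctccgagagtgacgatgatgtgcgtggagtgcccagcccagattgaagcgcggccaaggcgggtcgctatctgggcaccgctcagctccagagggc
ETV6: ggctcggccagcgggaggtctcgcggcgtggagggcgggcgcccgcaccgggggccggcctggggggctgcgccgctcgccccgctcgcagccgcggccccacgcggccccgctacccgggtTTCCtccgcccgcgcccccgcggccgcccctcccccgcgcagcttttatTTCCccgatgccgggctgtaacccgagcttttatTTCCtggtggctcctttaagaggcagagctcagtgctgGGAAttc
ELF2: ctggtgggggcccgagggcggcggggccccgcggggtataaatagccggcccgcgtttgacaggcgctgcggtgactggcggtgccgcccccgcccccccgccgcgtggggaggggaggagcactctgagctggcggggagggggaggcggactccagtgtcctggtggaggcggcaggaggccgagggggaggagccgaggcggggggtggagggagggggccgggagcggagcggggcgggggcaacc
The core occurred 3 times in the ETS2 window, 4 times in the ETV6 window and 0 times in the ELF2 window, against a median of 3 over all windows. The other ETS2 window, nearer to the gene body, held 6 cores at 68.8% GC, and 9.14% of all windows held at least as many. The other ELF2 window held 2. At least 3 cores were found in 55.1% of all windows and at least 4 in 34.3%. The GC content of the printed windows was 54.4% for ETS2, 74.4% for ETV6 and 78.8% for ELF2, against a median of 58.0% over all windows.

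The 10 members ranged from 3.03 to 19.5 FPKM in group means, a per-length scale on which genes can be set side by side within a table. ERF, a repressor that leaves the nucleus once ERK has phosphorylated it, had the highest level of the 10 in every group, from 15.9 ± 0.909 FPKM in Ctrl to 19.5 ± 1.48 FPKM in crowded hESCs (mean ± SD, n = 2 in each group). In the small libraries ETS1 followed at 13.2 ± 0.293 FPKM, then ELK1, ETS2, ELF2, GABPA, ETV6, ELK3, ELK4 and ELF1, and only the last pair overlapped. In crowded hESCs ELK1 and ELF2 stood directly below ERF, and ETS1, at 8.50 ± 0.410 FPKM, overlapped with GABPA at 8.51 ± 0.512 FPKM. ETV6 was lowest of the members there at 3.03 ± 0.170 FPKM. In Ctrl libraries ELK1 and ETS1 overlapped below ERF, as did ELF2 and ETS2. In ETV4 KD libraries the order below ERF began with ELK1, ETS2 and GABPA, and the libraries of neighbours overlapped from ETS1 through ELF2 and ELK3 to ELK4.

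**Figure D1:**
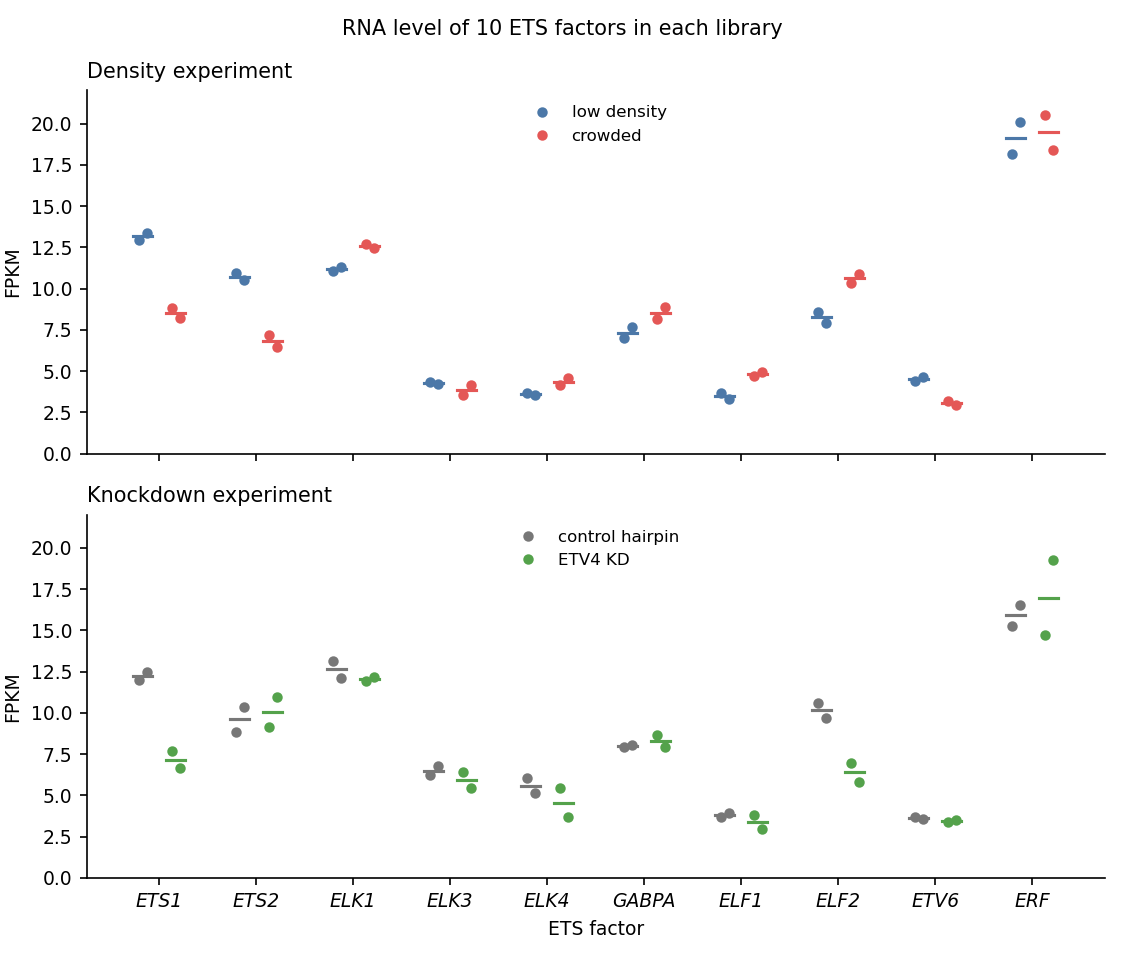
FPKM (vertical axis) of the 10 ETS factors (horizontal axis) in each library, with points for libraries and lines for the mean of 2, in the density experiment above and the knockdown experiment below. ERF is the highest in every group, ETS1 is lower in crowded and in ETV4 KD libraries, and ELF2 is higher in crowded but lower in ETV4 KD libraries.

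Summed over the 10 members, RNA stood at 84.8 and 86.6 FPKM in the small libraries, 83.2 and 81.9 FPKM in the crowded, 87.4 and 88.6 FPKM in the Ctrl and 78.1 and 78.3 FPKM in the ETV4 KD libraries. The summed level was thus lower in the crowded and in the ETV4 KD libraries, without overlap. In FPKM 70.2% and 63.3% of single genes did not overlap either. The mean sum went from 85.7 to 82.5 FPKM under crowding, and from 88.0 to 78.2 FPKM after ETV4 KD. These sums were not tested, and scales differ a little. Under crowding the log2 fold change of ERF was -0.03 on normalized counts and 0.02 on log2(FPKM + 0.5). The PEA3 group summed to means of 95.9, 74.6, 118 and 62.4 FPKM in the same order of groups. The members therefore made up 43.7% of the RNA of all measured ETS genes in small and 48.2% in crowded hESCs, and 40.0% in Ctrl and 50.7% in ETV4 KD hESCs. Of the 15 ETS genes in neither set, 4 reached 1 FPKM in a group, namely ETV3, ELF3, ELF4 and SPIB.

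**Figure D2:**
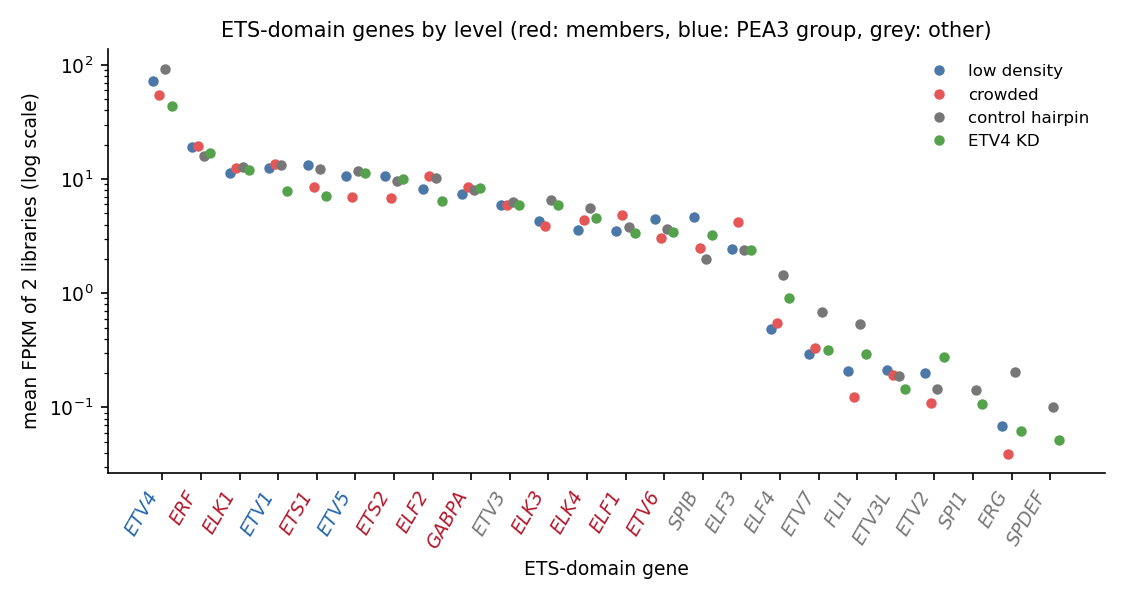
Mean FPKM of 2 libraries (log axis) for each measured ETS-domain gene in the 4 groups, ordered by level; gene names are red for the 10 members, blue for the PEA3 group and grey for the rest. ETV4 is the most abundant at 43.3 to 92.9 FPKM, and all 10 members lie between 3.03 and 19.5 FPKM.

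Crowding lowered 3 members and raised others by less. Counts of 17672 genes were compared by edgeR's quasi-likelihood test, p-values were adjusted after Benjamini and Hochberg, and a DEG had an adjusted p under 0.05 together with a log2 fold change beyond 0.5 in either direction. ETS1, ETS2 and ETV6 were DEGs and lower in crowded hESCs, and no member was a DEG in the other direction, although 4 were higher at an unadjusted p under 0.05; DESeq2 likewise called 0 DEGs higher. Over all genes tested, 16.1% were DEGs, with 5.47% of all genes lower and 10.7% higher. By adjusted p alone, which 39.7% of all genes passed, 3 members were lower (20.3% of all genes) and 3 higher (19.4%). Libraries of the groups did not overlap for 9 of the 10 members, both in FPKM and in normalized counts (CPM), as for 70.2% and 70.7% of all genes on these scales. The median log2 fold change of the 10 members was 0.04, with 5 of the 10 below 0.

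ETS1, the founding member and an activator at many Ras-responsive genes, had 13.0 and 13.4 FPKM in the small libraries and 8.79 and 8.21 FPKM in the crowded libraries. Both crowded libraries lay below both small ones. The log2 fold change on counts was -0.69 ± 0.06 (SE), a fall to 0.622 of the small level, with an adjusted p of 3.01e-08 by edgeR's quasi-likelihood test. ETS2, its close relative, had 10.9 and 10.5 FPKM in the small libraries and 7.20 and 6.48 FPKM in the crowded libraries, again without overlap. Its log2 fold change was -0.71 ± 0.07, with an adjusted p of 2.40e-07 by the same test. ETV6, a repressor whose pointed domain forms polymers, had 4.39 and 4.62 FPKM against 3.15 and 2.91 FPKM, with every crowded library below every small one. It fell by 0.63 ± 0.08 on the log2 scale, with an adjusted p of 2.42e-06 by the same test. These 3 stayed DEGs with each library left out in turn, with log2 fold changes from -0.74 to -0.63 for ETS1, -0.79 to -0.62 for ETS2 and -0.69 to -0.56 for ETV6.

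Both ELF members went the other way. ELF2, whose isoforms include activators and repressors, had 8.58 and 7.93 FPKM in the small libraries and 10.3 and 10.9 FPKM in the crowded libraries, so both crowded libraries were higher. Its log2 fold change was 0.38 ± 0.07, with an adjusted p of 0.000172 by edgeR's quasi-likelihood test, but short of the 0.5 needed for a DEG. ELF1, an activator at many blood and housekeeping genes, had 3.66 and 3.33 FPKM in small and 4.70 and 4.94 FPKM in crowded hESCs. It rose by 0.34 ± 0.09 on the log2 scale, with an adjusted p of 0.00399 by the same test. Reads per FPKM, which depends on the length of the transcripts counted, moved by -0.07 for ELF1 and 0.07 for ELF2 on the log2 scale between these groups relative to the median gene, against a median absolute shift of 0.0028 over all genes, while the same measure differed by up to 0.08 between replicates of ELF2. Counting by strand is not stated, and ELF2 overlaps NOCT, a gene on the opposite strand whose level was 11.5 and 11.1 FPKM in small and 9.44 and 8.72 FPKM in crowded libraries.

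Of the ELK factors, which bind with SRF at serum response elements and are switched on by ERK, ELK4 alone passed, and by adjusted p only. ELK4 had 3.68 and 3.52 FPKM in the small and 4.12 and 4.56 FPKM in the crowded libraries, both crowded libraries being higher. Its log2 fold change was 0.23 ± 0.07, with an adjusted p of 0.0126 by edgeR's quasi-likelihood test. ELK1 had 11.1 and 11.3 FPKM against 12.7 and 12.4 FPKM, and its log2 fold change of 0.10 did not pass (interval -0.04 to 0.24). ELK3, the member of this group that represses when ERK is quiet, had 4.32 and 4.21 FPKM against 3.54 and 4.17 FPKM, and its log2 fold change of -0.20 did not pass (unadjusted interval -0.39 to -0.01). Without replicate 2 of the small libraries the adjusted p was 0.157 for ELK4 and 0.0807 for ELF1, and without crowded replicate 2 it was 0.0729 for ELK4, all by edgeR's quasi-likelihood test with the remaining libraries.

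GABPA, the DNA-binding subunit of the factor GABP that serves many genes of mitochondria, had 7.01 and 7.66 FPKM in small and 8.15 and 8.87 FPKM in crowded hESCs. The crowded libraries were both higher, but the log2 fold change of 0.16 did not pass the test (unadjusted interval 0.01 to 0.30, adjusted p 0.0805 in edgeR's quasi-likelihood test). ERF had 18.2 and 20.1 FPKM against 20.5 and 18.4 FPKM and was the only member whose libraries overlapped. Its log2 fold change was -0.03, with an interval from -0.17 to 0.11. Without crowded replicate 1 the adjusted p of GABPA was 0.00655, and without crowded replicate 2 that of ELK3 was 0.00419, by the same test.

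ETV4 KD lowered 2 of the members, ETS1 and ELF2, and no member passed in the other direction, nor was any higher at an unadjusted p under 0.05 (edgeR) or as a DEG by DESeq2 (0 of 10 each). Here 13.0% of the 17879 genes tested were DEGs, 7.1% lower and 5.88% higher, and 21.5% passed by adjusted p alone, by which the same 2 members passed. In FPKM the libraries did not overlap for 3 of the 10 members, ETS1, ELF2 and ETV6, as for 63.3% of all genes. In normalized counts (CPM) they did not overlap for 4, ETS1, ELF2, GABPA and ELF1, as for 64.9% of all genes. The median log2 fold change of the members was -0.10, with 7 of 10 below 0.

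ETS1 had 12.0 and 12.5 FPKM in the Ctrl libraries and 7.67 and 6.64 FPKM in the ETV4 KD libraries, well apart. Its log2 fold change was -0.77 ± 0.09, to 0.587 of the Ctrl level, with an adjusted p of 0.00149 by edgeR's quasi-likelihood test. ELF2 had 10.6 and 9.71 FPKM in Ctrl and 6.98 and 5.80 FPKM in ETV4 KD hESCs, also without overlap. It fell by 0.62 ± 0.10 on the log2 scale, with an adjusted p of 0.00603 by the same test. Both remained DEGs with each library left out in turn, at -0.85 to -0.69 for ETS1 and -0.75 to -0.50 for ELF2. NOCT, opposite ELF2, had 9.36 and 9.85 FPKM in Ctrl and 11.4 and 11.0 FPKM in ETV4 KD libraries.

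ETS2 and ETV6, which were lower in crowded hESCs, did not pass after the knockdown. ETS2 had 8.83 and 10.4 FPKM in Ctrl and 9.11 and 11.0 FPKM in ETV4 KD libraries, so the groups overlapped, and its log2 fold change was 0.07 (interval -0.22 to 0.36). ETV6 had 3.67 and 3.59 FPKM against 3.39 and 3.52 FPKM, with a log2 fold change of -0.07 (interval -0.29 to 0.16). For both, a fall as large as that in crowded hESCs lay outside the interval.

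The ELK factors and GABPA had no call after ETV4 KD with all 4 libraries. ELK4 was the least even: 6.02 and 5.12 FPKM in Ctrl against 5.44 and 3.68 FPKM in ETV4 KD libraries, with a log2 fold change of -0.30 ± 0.16. One ETV4 KD library decided this value, since it was -0.59 without replicate 1, with an adjusted p of 0.00252 by edgeR's quasi-likelihood test, and -0.06 without replicate 2. ELK1 had 13.2 and 12.1 FPKM against 11.9 and 12.2 FPKM, and ELK3 had 6.24 and 6.75 FPKM against 6.41 and 5.42 FPKM, both with overlap. GABPA, at 7.92 and 8.05 FPKM in Ctrl and 8.68 and 7.91 FPKM in ETV4 KD libraries, had a log2 fold change of 0.05. ELF1 had 3.70 and 3.90 FPKM against 3.80 and 2.93 FPKM, with a log2 fold change of -0.15. ERF, at 15.3 and 16.6 FPKM against 14.7 and 19.3 FPKM, had the widest spread in FPKM between ETV4 KD libraries, and its log2 fold change was 0.10 (interval -0.22 to 0.41). Without ETV4 KD replicate 1 it was 0.31, with an adjusted p of 0.0183 by edgeR's quasi-likelihood test. ATP5PF, which overlaps GABPA on the opposite strand, lay between 37.8 and 49.0 FPKM in the 8 libraries, and MFSD4A, opposite ELK4, at most at 0.254 FPKM.

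**Figure D3:**
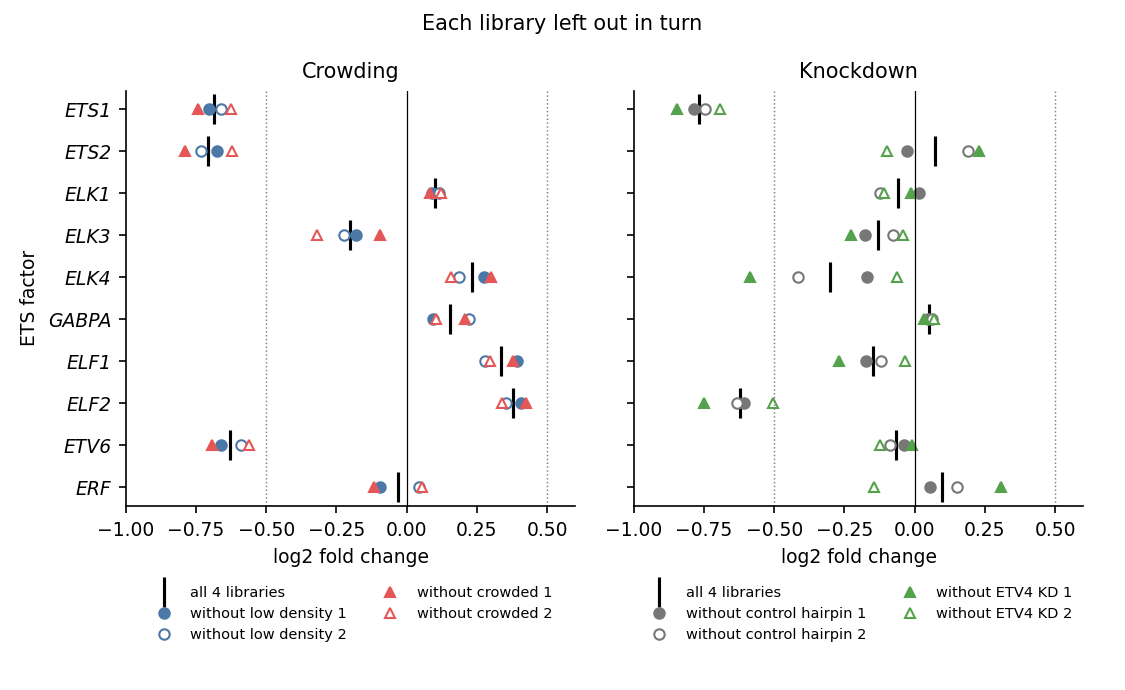
Log2 fold change (horizontal axis) of each ETS factor with all 4 libraries (bar) and with each library left out in turn (circles and triangles) for crowding on the left and ETV4 KD on the right; dotted lines mark 0.5 in both directions. ETS1 stays beyond the line in both panels, and ELK4 under ETV4 KD runs from -0.59 to -0.06.

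Whether a member answered differently to crowding and to ETV4 KD was tested directly, in 1 fit of the raw counts of all 8 libraries over the 17790 genes tested. The contrast was the log2 fold change under crowding minus that under knockdown. DEGs of this contrast were 27.5% of all genes (12.5% lower and 15.0% higher), and of the members ETS2 and ETV6 were lower and ELF2 higher. ELF2 had the largest difference of the members, 1.00 ± 0.12, with an adjusted p of 9.18e-05 by edgeR's quasi-likelihood test. It was higher in crowded hESCs and lower in ETV4 KD hESCs, and its libraries did not overlap in either comparison. The difference was -0.78 ± 0.16 for ETS2 and -0.57 ± 0.12 for ETV6, with adjusted p of 0.00200 and 0.00308 by the same test. ELF1, at 0.48 ± 0.15, passed by adjusted p alone (0.0207, edgeR's quasi-likelihood test), as did 38.5% of all genes (19.7% lower and 18.8% higher). Without small replicate 2, crowded replicate 2 or Ctrl replicate 2 its adjusted p was 0.0964, 0.0774 or 0.0650 by the same test.

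For ETS1 the difference was 0.08 ± 0.10, with an interval from -0.15 to 0.30, which leaves room for a difference of that size between its falls. ELK4 had a difference of 0.53 ± 0.20 that just missed the threshold, with an adjusted p of 0.0586 by edgeR's quasi-likelihood test. It passed without Ctrl replicate 2, at 0.64, and without ETV4 KD replicate 1, at 0.81. ERF, ELK1, ELK3 and GABPA differed by -0.13, 0.16, -0.08 and 0.10, none past the threshold.

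**Figure D4:**
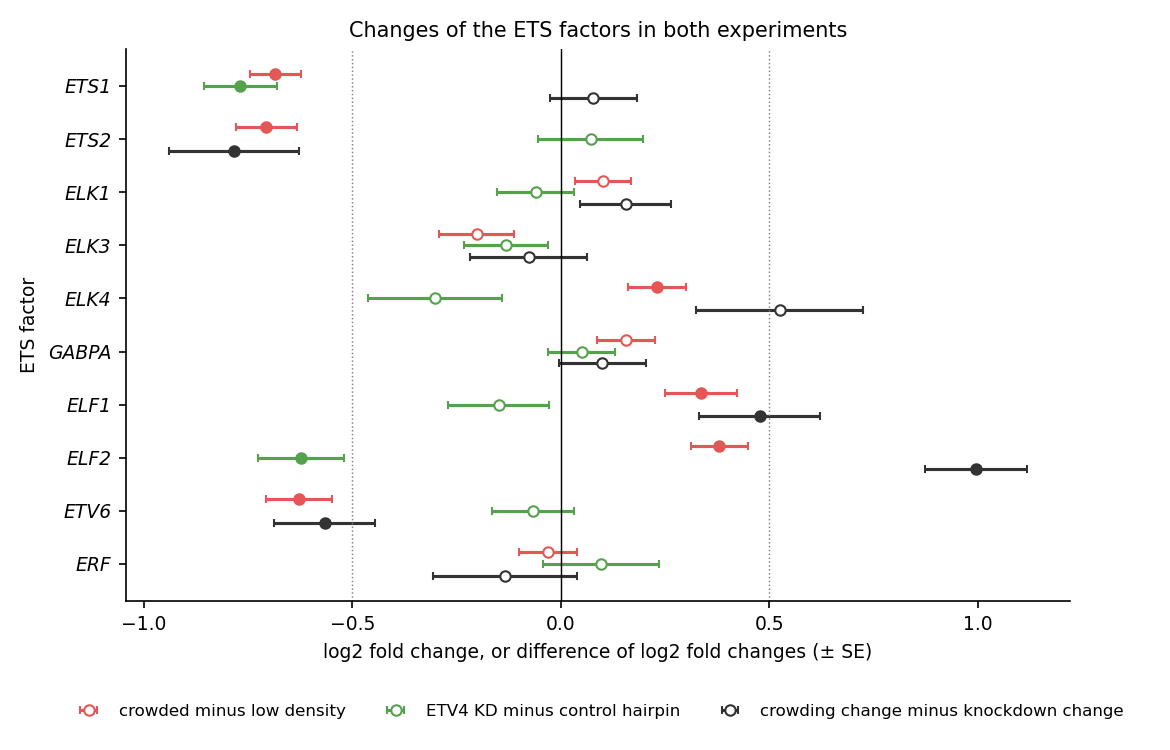
Log2 fold change ± SE of each ETS factor under crowding (red) and ETV4 KD (green), and the difference between them (black), with filled points for an adjusted p below 0.05 and dotted lines at 0.5 in both directions. ETS1 falls in both at -0.69 and -0.77, and ELF2 has the largest difference of the members at 1.00.

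The PEA3 factors were measured in the same fits. ETV4 fell by 0.49 and ETV5 by 0.66 on the log2 scale in crowded hESCs, and ETV1 stood at 0.08 there without a call. Without crowded replicate 1 the log2 fold change of ETV5 was -0.47, short of the 0.5 needed for a DEG. After ETV4 KD, ETV4 fell by 1.15 and ETV1 by 0.77, while ETV5 was at -0.06 without a call. ETS1 was thus the only member with a DEG call in both comparisons. ETV4 was a DEG after ETV4 KD and passed by adjusted p alone under crowding. Of the other ETS genes with a table mean of at least 1 FPKM, ELF3 rose by 0.72 and SPIB fell by 0.98 on the log2 scale under crowding, and SPIB rose by 0.75 and ELF4 fell by 0.67 after ETV4 KD. The ELF4 call was lost without Ctrl replicate 1 (-0.60), Ctrl replicate 2 (-0.73) or ETV4 KD replicate 2 (-0.48), and that of SPIB after ETV4 KD without Ctrl replicate 1 (0.63). ERG and ETV7, both with group means below 1 FPKM and named after their values were seen, were also DEGs and lower after ETV4 KD.

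**Figure D5:**
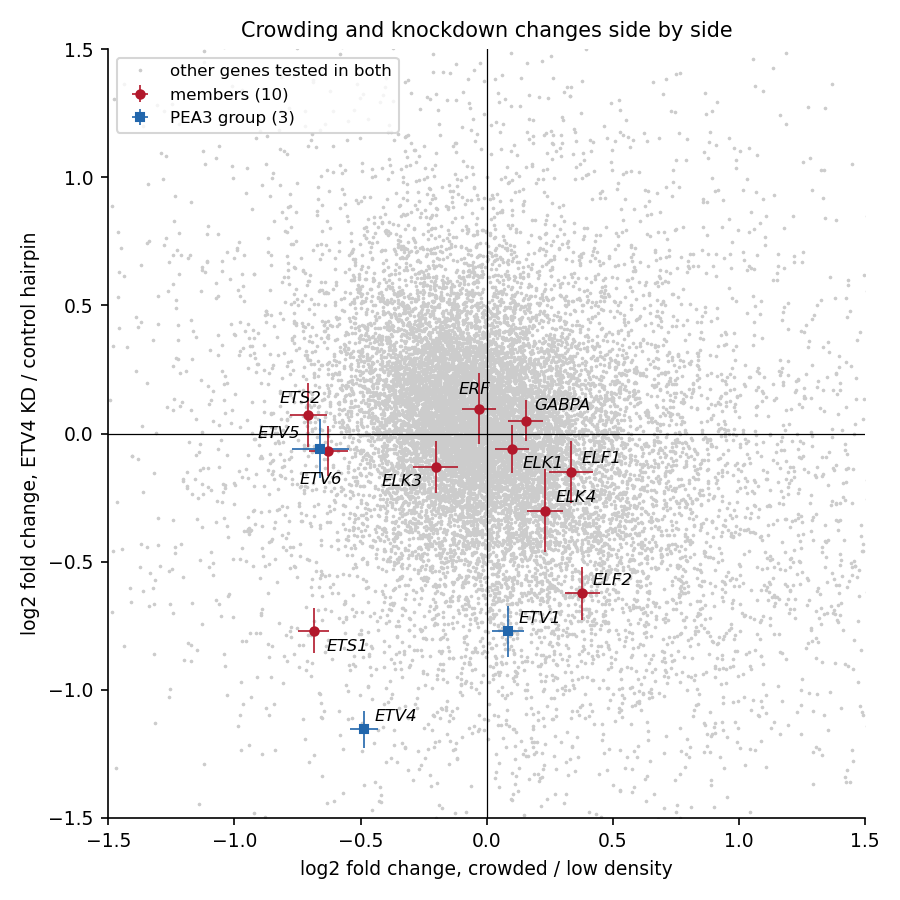
Log2 fold change under crowding (horizontal) and under ETV4 KD (vertical) for the 10 members (red) and the PEA3 group (blue), ± SE, over other genes tested in both (grey), with axes cut at 1.5 in each direction. ETS1 is the only member in the lower left beyond 0.5 on both axes, and ELF2 lies in the lower right at 0.38 and -0.62.

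Of 18 partners and regulators, LMO2, a blood factor below 1 FPKM named after its value was seen, was the single DEG under crowding, where 16.1% of all genes were DEGs. None was a DEG after ETV4 KD, against 13.0% of all genes, and the count there by adjusted p alone was also 0 (edgeR's quasi-likelihood test), with 2 at an unadjusted p under 0.05 and 0 by DESeq2. Medians over these partners were 0.01 and 0.07 on the log2 scale. By adjusted p alone 3 partners were lower and 2 higher under crowding, 5 of 18 against 39.7% of all genes. The lower ones were SRF (-0.42), GABPB1 (-0.42) and CREBBP (-0.34), and the higher ones SIN3A (0.19) and LMO2. These too were named for these calls after their values were seen.

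The targets of SRF with the ELK factors are mostly immediate-early genes. All gene lists in this section were chosen with earlier results of these data known. Their counts beside the shares of all genes are therefore a description and no test of the factors. Under crowding 4 of 14 tested fell as DEGs, against 5.47% of all genes, and 2 rose, against 10.7%. IER3, a survival factor, fell by 1.91, DUSP5, an ERK phosphatase, by 0.76, PHLDA1 by 0.69 and FOS by 0.52 on the log2 scale, while EGR1 rose by 1.36 and NR4A1 by 0.51. After ETV4 KD 7 of 16 rose, against 5.88% of all genes, and 1, DUSP5, fell by 0.52, against 7.1%. EGR1 rose by 3.76, FOS by 1.65, PHLDA1 by 1.38, JUNB by 1.17 and BTG2 by 1.04 on the log2 scale, while EGR2 and EGR3, with means below 1 FPKM over the table and named after their values were seen, also rose. Over the list the median was -0.38 under crowding and 0.69 after ETV4 KD on the log2 scale. The call of FOS under crowding was lost without either small library or crowded replicate 2 (-0.55 to -0.39), that of NR4A1 without small replicate 1 (0.43) or crowded replicate 2 (0.35), and that of DUSP5 after ETV4 KD without ETV4 KD replicate 1 (-0.46).

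None of the 11 GABP target genes, most of them for mitochondrial proteins, was a DEG in either comparison by edgeR's quasi-likelihood test, while 4 passed by adjusted p alone under crowding and 2 after ETV4 KD, against 39.7% and 21.5% of all genes. At an unadjusted p under 0.05 they were 6 and 3, and DESeq2 called 0 DEGs in either. Their medians were 0.05 and 0.03 on the log2 scale. Of the ETS1/ETS2 target genes 5 of 9 tested fell under crowding, against 5.47% of all genes, and none rose as a DEG, against 10.7%. They were TEK, an endothelial receptor, with a fall of 1.75 on the log2 scale, PLAU, the urokinase protease, with 1.04, FLT1 with 0.58, NRP1 with 0.52 and TNC, a matrix protein, with 0.50. After ETV4 KD 5 of 11 fell, against 7.1% of all genes, and none rose as a DEG, against 5.88%: TNC by 1.02, KDR by 0.75, TERT by 0.61 and MMP9 by 0.60, besides CDH5, which was below 1 FPKM and named after its value was seen. By adjusted p alone KDR was higher under crowding (0.41), and FLT1 (0.34) and NRP1 (0.45) were higher after ETV4 KD, all named for these calls after their values were seen, and DESeq2 called 0 DEGs higher in either comparison. The median was -0.50 and -0.60, for a list that was likewise chosen with earlier results of these data known. The calls of NRP1 and TNC under crowding were lost without small replicate 2 (-0.43 and -0.48) or crowded replicate 1 (-0.49 and -0.46), the call of MMP9 with any 1 library left out (-0.62 to -0.57), and that of TERT without Ctrl replicate 2 (-0.50).

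Summed levels of marker lists for other cells also differed between the groups, except for neuroectoderm and trophoblast or amnion after ETV4 KD. Fibroblast markers, 4 of 7 with a row under crowding, summed to 117 and 119 FPKM in small and 83.7 and 84.6 FPKM in crowded libraries, and 5 of 7 summed to 155 and 158 FPKM in Ctrl and 128 and 118 FPKM in ETV4 KD libraries. THY1 made up most of these sums, with means of 79.2 FPKM in small and 53.3 FPKM in crowded libraries. Its means were 118 FPKM in Ctrl and 67.5 FPKM in ETV4 KD libraries. The sums thus mainly follow 1 gene and do not show that fibroblasts were present. The list did not move as one after ETV4 KD. Of 5 tested, 2 were DEGs and lower, against 7.1% of all genes, and 1 was higher, against 5.88%. The higher one was COL1A1, at 21.9 FPKM in Ctrl and 43.9 FPKM in ETV4 KD libraries. Under crowding 2 of 4 tested were DEGs and lower, against 5.47% of all genes, and 0 higher. DCN and LUM were not analysed here. Endothelium and blood markers, with TEK foremost, summed to 3.91 and 4.08 FPKM in small, 1.45 and 1.20 FPKM in crowded, 4.72 and 5.60 FPKM in Ctrl, and 6.56 and 6.14 FPKM in ETV4 KD libraries, while PECAM1, TAL1, GATA1 and PTPRC were not analysed here. Mesendoderm markers, led by CER1 in 3 of 4 groups, summed to 4.46 and 4.78 FPKM in small, 1.20 and 0.969 FPKM in crowded, 2.17 and 3.16 FPKM in Ctrl and 1.32 and 1.94 FPKM in ETV4 KD libraries. Under crowding 5 of 7 neuroectoderm markers had a row. They summed to 1.37 and 1.12 FPKM in small and 0.377 and 0.412 FPKM in crowded libraries. SIX6 made up most of this sum, at 1.05 and 0.243 FPKM, and the rest lay below 1 FPKM. Of 4 tested, 2 were DEGs and lower and 1, SOX1, was higher (0.00952 to 0.0601 FPKM), against 5.47% and 10.7% of all genes. Of 8 trophoblast or amnion markers 2 had a row, and KRT7 (2.24 to 3.13 FPKM) was nearly all of their sum. That sum was 2.30 and 2.31 FPKM in small and 3.29 and 3.20 FPKM in crowded libraries. Neither sum overlapped between the small and crowded libraries, nor did 70.2% of single genes in FPKM. In the knockdown experiment both sums overlapped. Neuroectoderm markers summed to 0.31 and 0.25 FPKM in Ctrl and 0.18 and 0.32 FPKM in ETV4 KD libraries. Trophoblast or amnion markers summed to 2.4 and 3.3 FPKM in Ctrl and 2.2 and 2.5 FPKM in ETV4 KD libraries. Of the 9 pluripotent stem cell markers 2 were DEGs and lower after ETV4 KD, against 7.1% of all genes, and 1 was higher, against 5.88%. DNMT3B went from 356.5 to 201.5 FPKM and TDGF1 from 336.5 to 189.7 FPKM. LIN28A went from 346.4 to 492.1 FPKM, with a log2 fold change of 0.51. Under crowding 0 were DEGs, while 4 were lower and 3 higher by adjusted p alone. The part of these markers in the changes of ETS1, ETS2, ETV6 and ELF2 was not tested.

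On GRCh37 the genes of the members that changed lie at chr11:128328656-128457453 on the minus strand for ETS1, chr21:40177107-40196879 on the plus strand for ETS2, chr12:11802608-12048311 on the plus strand for ETV6 and chr4:139949266-140098372 on the minus strand for ELF2. ETS2 and GABPA share chromosome 21, and ELK3 and ETV6 share chromosome 12, but members of neither pair carried the same calls. Levels and changes here are those of whole genes, and the 11 RefSeq transcripts of ELF2 were not separated.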

How the data were processed

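RNA of H9 hESCs was measured in 8 libraries. The authors trimmed paired poly-A reads (Trimmomatic), mapped them to GRCh37 (HISAT2 2.1.0) and quantified known genes (StringTie 2.1.3b), per the submitters' processing notes and the study's methods. They deposited 1 table per experiment with read counts per gene, not normalized, and with FPKM values, normalized for length and depth within each table. Strand-specific counting is not given in the sources used here. Rows without reads in a library were not analysed here. Columns of the authors' comparisons (fold changes, mean levels, p-values) and 16 further columns of per-sample values were not used.

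Groups came from the sample labels, and the 4 libraries of each table were compared with each other. The knockdown table names its columns Test and Control, and they were taken as ETV4 KD and Ctrl. Counts were tested in R 4.3.3 with edgeR 4.0.16 (filterByExpr, TMM, robust quasi-likelihood), with Benjamini-Hochberg adjustment over all genes tested. SE is the log2 fold change divided by the root of F, and intervals are 95%, unadjusted, from the t distribution with the test's moderated degrees of freedom. The difference of the comparisons was tested in 1 fit of the raw counts of the 18679 genes in both tables. FPKM was used for levels. The members and gene lists were chosen with earlier results of these data known. Named genes are all members, the PEA3 group, and DEGs of the lists with a mean of at least 1 FPKM in the table, and, for each member that is a DEG, the 3 genes nearest in pattern with at least 5 CPM. The fits were tested on simulated data with 200 changed genes.

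Alternatives were the Wald test of DESeq2 1.42.0, its size factors within edgeR, all genes without the count filter, the replicate number as a block, each library left out in turn, and limma 3.58.1 on log2(FPKM + 0.5), restricted to a mean FPKM of 0.5 or more, also with pseudocounts of 0.1 and 1 and without that minimum. Replicate chi-square per degree of freedom over genes was 5.78 to 23.0, so no pair of libraries agreed within sampling noise. Same-numbered libraries had correlated deviations of only -0.04 (crowding) and 0.09 (knockdown), and the number was not taken to pair them. With 50359703 to 62410168 reads a library, the spread of 2 replicates limits precision.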

Additional observations from a re-analysis of the deposited data

How the results depend on the processing

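The DEG calls of ETS1, ETS2 and ETV6 under crowding and of ETS1 and ELF2 after ETV4 KD held under each alternative, except ETV6 under limma with a pseudocount of 1 (-0.45). In the other lists every limma setting lost the calls of FOS, NR4A1, NRP1 and TNC under crowding. With a pseudocount of 0.5 these were at -0.35, 0.38, -0.30 and -0.30. TNC also lost its call without the count filter (-0.4986). After ETV4 KD every limma setting lost the call of ELF4 (-0.48 with 0.5). Some limma settings lost those of MMP9, TERT, DUSP5 and SPIB. Members higher by adjusted p alone under crowding numbered 3, and 1 to 4 with a library left out; after ETV4 KD they numbered 0, and 0 to 1. For the difference, members higher by the DEG rule numbered 1, but 2 with DESeq2's Wald test, and 1 to 3 with a library left out, and by adjusted p alone 2, and 1 to 3. With the replicate number as a block, members higher as DEGs in the difference numbered 2 because ELK4 passed (0.54), and ELK4 passed by adjusted p alone after ETV4 KD (-0.32, adjusted p 0.00135 in edgeR's quasi-likelihood test); no other call of a member moved with this pairing.

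Sign changed for some members without a call. ERF under crowding was 0.02 in each limma setting (0.0235, 0.024 and 0.023). With a library left out, ranges crossed 0 for ERF under crowding (-0.1156 to 0.053), for ETS2 (-0.0988 to 0.2275), ERF (-0.1458 to 0.3079), ELK1 (-0.125 to 0.0149) and ETV5 (-0.1838 to 0.0853) after ETV4 KD, and for ERF (-0.3452 to 0.1122) and ELK3 (-0.1932 to 0.0311) in the difference. The cause was not tested.

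Counts over all genes fell with limma: DEGs under crowding from 967 lower and 1884 higher to 536 and 1181 (627 lower with a pseudocount of 0.1, 417 and 839 with 1, 555 lower without a minimum), and after ETV4 KD from 1269 and 1052 to 702 and 623 with a pseudocount of 1 and 789 lower without a minimum. By adjusted p alone, genes lower under crowding numbered 3584, but 2322 with limma (2315 with a pseudocount of 0.1, 1993 without a minimum) and 2364 without small replicate 1, and after ETV4 KD 1946 lower and 1901 higher, but 1105 and 1160 with limma without a minimum, 3395 and 3499 with the block, 962 and 820 without Ctrl replicate 1, 1139 higher without Ctrl replicate 2, and 3085 and 3118 without ETV4 KD replicate 1. The 2 libraries a group limit all values.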

Other observations

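For each member that was a DEG, the genes whose log2 CPM, centred within each experiment, lay nearest to the member's over the 8 libraries were sought among 11760 genes. For ETS1 they were THY1, a surface glycoprotein, MYORG and MACROH2A1, a histone variant, at root mean square distances of 0.0460, 0.0481 and 0.0565. THY1 fell by 0.63 under crowding and by 0.81 after ETV4 KD on the log2 scale. For ETS2 they were ADI1, IL4R, a cytokine receptor, and TUBB6, a tubulin, with log2 fold changes under crowding of -0.69, -0.71 and -0.71, and of 0.01, 0.10 and 0.00 after ETV4 KD.

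For ETV6 the nearest genes were PIEZO1, a stretch-gated ion channel, PKIB, an inhibitor of protein kinase A, and SLC2A1, the glucose transporter GLUT1, with log2 fold changes of -0.53, -0.63 and -0.61 under crowding. For ELF2 they were HSDL1, RNPC3, a protein of the minor spliceosome, and FIG4, a phosphoinositide phosphatase, at distances of 0.0246, 0.0320 and 0.0428. These 3 had log2 fold changes of 0.39, 0.35 and 0.31 under crowding and of -0.63 in each after ETV4 KD. The genes were selected for likeness to the member in these same libraries, so their values are a description.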
